A study of Mus musculus with 3 samples.

Results

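The genes described are those of 7 integrin chains that T cells use (Itga4, Itgae, Itgal, Itgav, Itgb1, Itgb2 and Itgb7) and of 3 tensins (Tns1, Tns3 and Tns4). Each was read from a probe set whose only annotated symbol is that gene and, where a gene had several, from the one with the highest mean log2 intensity. All 10 genes were found, out of 19518 measured genes, and they have 15 probe sets out of 24800. They were chosen by name, with earlier results on the intensities of these same arrays known. The large difference of Tns4 between PLZF+/+ and PLZFlu/lu was among those results, so the values are a description and support nothing by themselves.

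RNA of thymic γδNKT cells, a kind of innate-like T cell, was profiled on Mouse Gene ST arrays of Affymetrix, 1 for each of 3 genotypes. Where 3 intensities follow each other, the order is PLZF+/+, PLZF+/lu, PLZFlu/lu. The genotypes were PLZF+/+, PLZF+/lu and PLZFlu/lu, where lu is luxoid, a point mutation of the gene for the transcription factor PLZF. The cells came from female C57Bl/6 mice 3 to 4 weeks of age. Per the study's methods, all groups, PLZF+/+ included, were Rag1−/− and carried transgenes for the Vγ1Vδ6.4 TCR, and CD4+CD8α− thymocytes were sorted in a repeated sort. A transgenic TCR on a Rag1-deficient background gives many cells of a single specificity, so these mice are a model of γδNKT cells and not their natural repertoire. How many mice each array stands for was not stated. Since a genotype has a single array, no difference has a replicate check and none was tested. Past 2-fold (a log2 difference beyond 1) is used as a measure of size alone.

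An integrin is a pair of 1 α and 1 β chain that spans the membrane and binds a ligand on another cell or in the matrix. LFA-1 (Itgal with Itgb2) binds ICAM proteins, α4β7 (Itga4 with Itgb7) binds the gut addressin MAdCAM, α4β1 (Itga4 with Itgb1) binds VCAM and fibronectin, and αEβ7 (Itgae, also called CD103, with Itgb7) binds E-cadherin on epithelium. The αv chain (Itgav) pairs with several β chains and can activate latent TGF-β. Tensins lie on the inner side. They bind the tails of integrin β chains through a phosphotyrosine-binding domain and link them to the cytoskeleton, while Tns4, also called cten, is the short member of the family and lacks the amino-terminal actin-binding part. LFA-1 is known for its part in the retention of NKT cells in the liver, and CD103 marks T cells within epithelia and some CD8 lineage thymocytes.

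The arrays had medians of 160.0 for PLZF+/+, 161.8 for PLZF+/lu, and 159.7 for PLZFlu/lu, and the intensities were used as deposited, on a linear scale. A background level of 108 was taken from 1033 probe sets of olfactory receptors, 95% of whose values lie below it. All 10 genes lay above it on every array, and 61.3% of all measured genes lay above it on at least 1. Of the 9 listed T cell markers 8 were measured, all above background, and their summed intensity was between 50333 and 51982. None of the listed γδ TCR constant genes was measured by a probe set of its own, so the γδ identity of the cells was not checked here. Of 14 macrophage and dendritic cell markers 10 were below background on all arrays, among them Csf1r, Lyz2 and Adgre1. The other 4 were above it on every array. Cd68 was at 386 and Cd74 at 124 on all arrays. Itgam was at 164, 152 and 139, and Fcgr3 at 145, 130 and 167. Zbtb16, the gene for PLZF, was at 8796 for PLZF+/+, 6143 for PLZF+/lu, and 2890 for PLZFlu/lu. The luxoid transcript can still hybridise, so this does not fully check the labels.

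Of the 10 genes, Tns4 was the one past 2-fold between PLZF+/+ and PLZFlu/lu thymocytes. Itgae was 1.73-fold higher in PLZF+/+, and the other 8 genes differed by at most 1.25-fold. Of all measured genes 0.430% were past 2-fold in this comparison, made up of 0.272% that were higher in PLZF+/+ and 0.159% that were lower. Tns4 was known to be past it when the genes were chosen, so nothing is read from 1 in 10. To any degree, 7 of the 10 genes were higher in PLZF+/+ and 3 were lower, against 24.9% and 16.9% of all genes, most of which had equal values on both arrays. The median log2 difference of the 10 genes was 0.11, and that of all genes was 0.00.

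**Figure D1:**
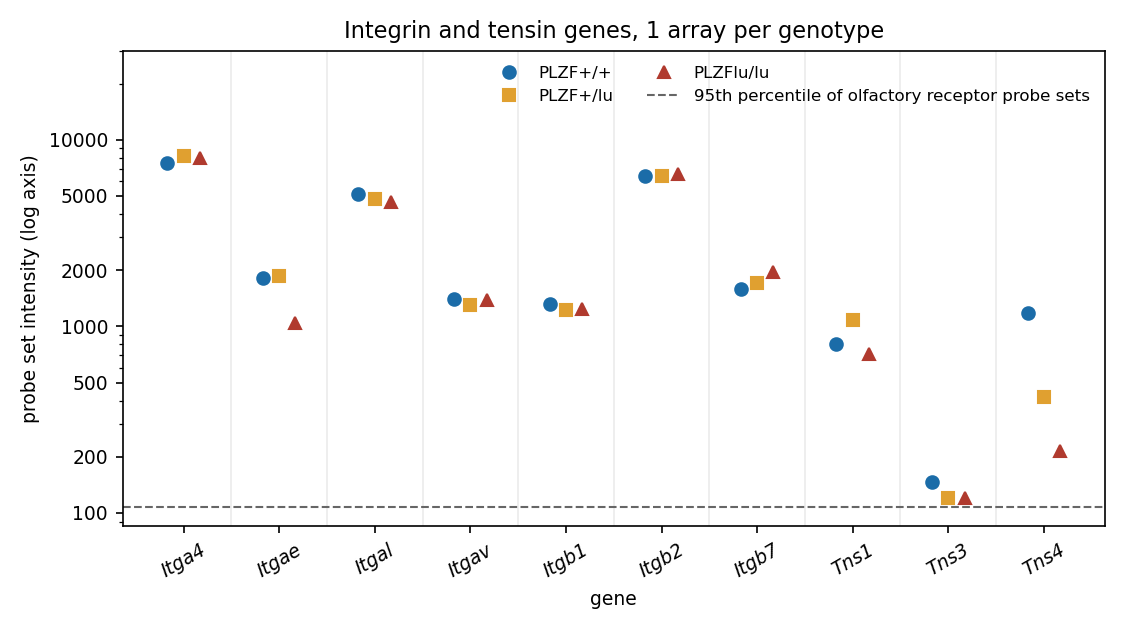
Probe set intensities (log axis) of the 10 genes. There are no error bars, a symbol being a single array (PLZF+/+ circle, PLZF+/lu square, PLZFlu/lu triangle), and the dashed line is the background level of 108. The symbols of Tns4 stand far apart, those of Itgae show the triangle alone below, and for the other 8 genes the circle and the triangle lie within 1.25-fold.

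Among the tensins, Tns4 was at 1176 for PLZF+/+, 418 for PLZF+/lu, and 214 for PLZFlu/lu. The level was lower with each luxoid allele, and the heterozygous cells lay between the others. The outer genotypes differed by 5.49-fold, a log2 difference of 2.46, which is rank 5 of the 19518 genes by absolute size. PLZF+/lu had 35.5% of the PLZF+/+ intensity and PLZFlu/lu 18.2%. The first allele was thus accompanied by a 2.82-fold difference and the second by a 1.95-fold one. Only 0.133% of genes were past 2-fold between PLZF+/+ and PLZF+/lu, and Tns4 had rank 6 there. Between PLZF+/lu and PLZFlu/lu, where 0.123% of genes were past 2-fold, it had rank 26 and lay just below the threshold, with a log2 difference of 0.96. The 3 comparisons share arrays, so they are not independent of each other. For Zbtb16 itself the first step was 1.43-fold and the second 2.13-fold, and for Tns4 a log2 scale that runs from 0 for the homozygous mutant to 1 for PLZF+/+ placed the heterozygote at 0.39.

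The genes whose pattern over the 3 arrays was most like that of Tns4 were Robo1, Ccr2, Cacna1e, Maf and Rora, by the distance between the pair of log2 steps, among 11972 genes above background. Robo1, a guidance receptor, was nearest, at 1549, 621 and 310, a distance of 0.18 on the log2 scale. Ccr2, a chemokine receptor for inflamed tissue, was at 1243, 487 and 216, a distance of 0.26. Cacna1e, a voltage-gated calcium channel subunit, was at 841, 307 and 194, a distance of 0.30. The transcription factor gene Maf (distance 0.39) and the nuclear receptor gene Rora (0.45) followed. With 3 arrays a pattern has only a pair of steps, so many genes with a large graded difference come out alike.

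Tns1, a long tensin with an actin-binding part, was highest in the heterozygous cells, at 806 for PLZF+/+, 1081 for PLZF+/lu, and 714 for PLZFlu/lu. PLZF+/lu exceeded PLZFlu/lu by 1.51-fold and PLZF+/+ by 1.34-fold, while the outer genotypes differed by 1.13-fold. Between PLZF+/lu and the homozygous mutant, 0.533% of all genes were past 1.5-fold. Tns1 is read by 6 probe sets, and none placed PLZF+/lu between the other genotypes. PLZF+/lu was the highest in 4 of them, in 1 by only 1.01-fold over PLZF+/+, and equal to PLZF+/+ in 2. The probe sets read the same RNA of each genotype, so they are not replicates. PLZFlu/lu was the lowest in 5 of the 6. The excess of PLZF+/lu over PLZFlu/lu ranged from 1.01-fold to 1.51-fold across the probe sets, and the brightest gave the largest value. PLZF+/+ exceeded PLZFlu/lu in 5 of the 6, and the outer genotypes differed by no more than 1.17-fold in any of them.

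**Figure D2:**
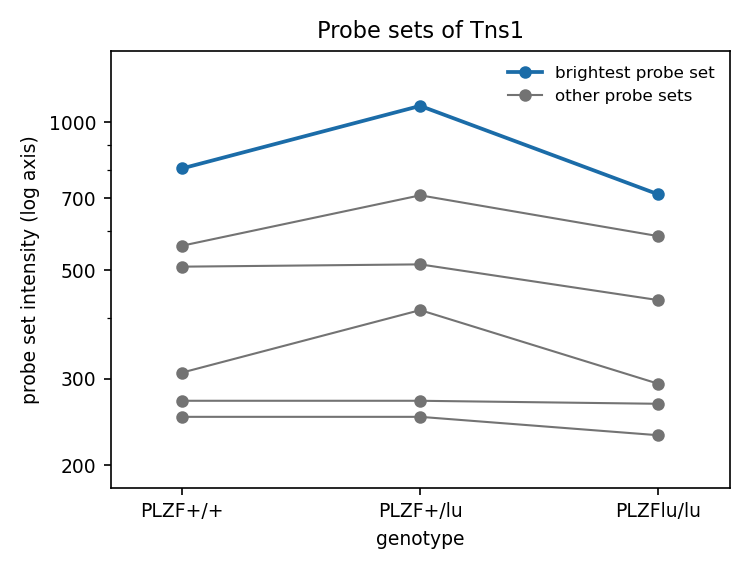
Intensities (log axis) of the 6 probe sets of Tns1 in the 3 genotypes, 1 array each, with the brightest in blue and the others in grey; lines join values of 1 probe set and are not a time course. In 4 probe sets the middle genotype, PLZF+/lu, is the highest, in 1 of them by only 1.01-fold, and in 2 it equals PLZF+/+.

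Tns3, another long tensin, was close to background, at 146 for PLZF+/+, 121 for PLZF+/lu, and 120 for PLZFlu/lu. Its difference of 1.21-fold between the outer genotypes lay in the first step. The remaining family member Tns2 was at 82.6 on all arrays, below the background level. Tns4 and Tns3 had the same order of the genotypes in the intensities as deposited, while Tns1 was highest in PLZF+/lu. The second step was 1.95-fold in Tns4 and 1.01-fold in Tns3. For Tns3 the place of PLZF+/lu rests on 121 against 120, close to background, so its order is not secure.

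Among the integrin chains, Itgae was at 1811 for PLZF+/+, 1859 for PLZF+/lu, and 1044 for PLZFlu/lu. PLZF+/+ and PLZF+/lu lay within 1.03-fold of each other, and the homozygous mutant stood apart below both. PLZFlu/lu had 57.7% of the PLZF+/+ intensity. The difference from PLZF+/lu was 1.78-fold, or 0.83 on the log2 scale, rank 44 of all genes in that comparison. At a threshold of 1.5-fold, which 1.43% of all genes passed between PLZF+/+ and PLZFlu/lu, Itgae joined Tns4, so that 2 of the 10 genes were past it. Between PLZF+/lu and PLZFlu/lu 3 genes were past 1.5-fold, namely Tns4, Itgae and Tns1. Of the CD8 lineage markers, Cd8a was at 369, 519 and 601 and Cd8b1 at 1290, 2263 and 2958. Both were highest in PLZFlu/lu, where Itgae was lowest, and intermediate in PLZF+/lu, where Itgae was not. Their part in the level of Itgae was not tested.

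Itgb7, the partner of αE and of α4, went the other way. It was at 1577 for PLZF+/+, 1718 for PLZF+/lu, and 1965 for PLZFlu/lu, so that PLZF+/+ was lower than PLZFlu/lu by 1.25-fold, with the heterozygote between. Itga4 was at 7492, 8214 and 7976, and its outer genotypes differed by 1.06-fold. For αEβ7 the α chain was thus higher and the β chain lower in PLZF+/+, and for α4β7 both chains were slightly lower there.

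Both chains of LFA-1 were nearly level over the genotypes. Itgal was at 5145 for PLZF+/+, 4801 for PLZF+/lu, and 4656 for PLZFlu/lu, a 1.11-fold difference between the outer genotypes. Itgb2, the common β chain of leukocyte integrins, was at 6378 in both PLZF+/+ and PLZF+/lu and at 6571 in PLZFlu/lu. Itgb1, the common chain of the VLA integrins, was at 1321, 1222 and 1246, and Itgav at 1394, 1294 and 1382. For both of these genes PLZF+/lu was the lowest, by less than 1.1-fold from either of the others. No chain of the 7 differed by more than 1.10-fold between PLZF+/+ and PLZF+/lu.

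**Figure D3:**
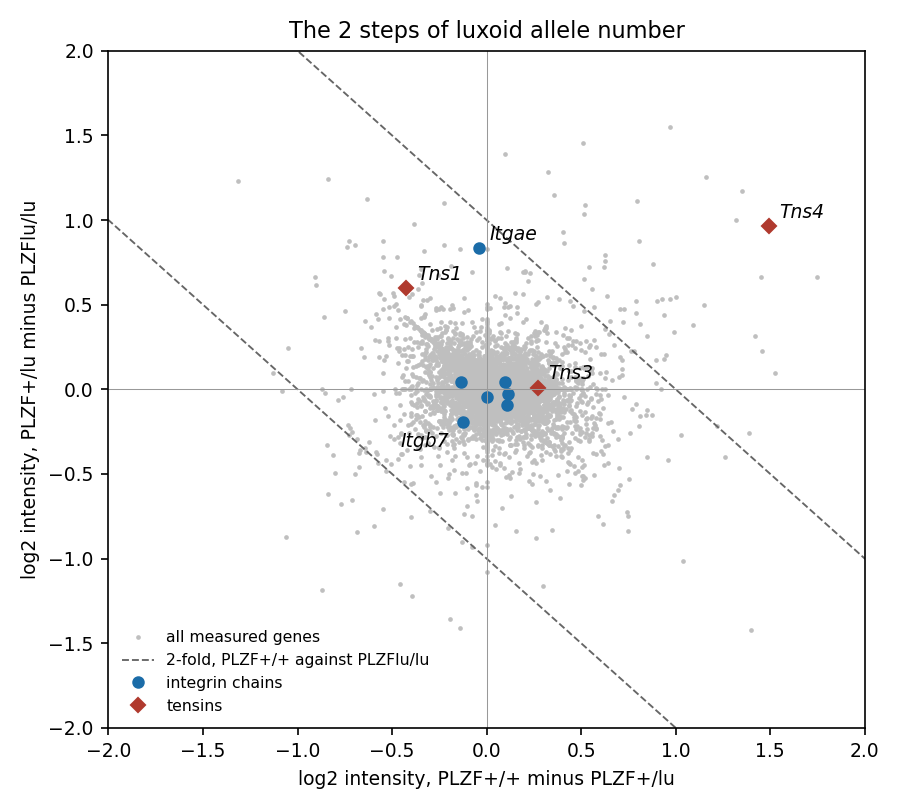
For each measured gene (grey points), the log2 difference PLZF+/+ minus PLZF+/lu is set against PLZF+/lu minus PLZFlu/lu, with integrin chains as blue circles and tensins as red diamonds; dashed lines mark 2-fold between the outer genotypes, and 3 genes lie outside the axes. Tns4 lies far to the upper right, Itgae lies up the vertical axis near 0.83, Tns1 lies to the upper left, and the other 7 genes lie in the central cloud.

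PLZF+/lu lay strictly between the other genotypes for 4 of the 10 genes, namely Tns4, Tns3, Itgal and Itgb7. For Tns3 it was above PLZFlu/lu by 1.01-fold only. The share was 11.4% over all genes and 17.4% among genes above background. Of all genes, however, 46.8% had the same value on all 3 arrays and could not have an order. None of the 10 genes was equal throughout. PLZF+/lu was above both for Itga4, Itgae and Tns1, below both for Itgav and Itgb1, and equal to PLZF+/+ for Itgb2.

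The wider family was taken from lists of the other integrin chains and Tns2. With these, 32 integrin chains and tensins were measured, of which 23 were above background in at least 1 array, and Tns4 was the member past 2-fold. To any degree, 13 of the 32 were higher in PLZF+/+, 7 lower and 12 equal, with a median log2 difference of 0.00. The shares over all genes were 24.9%, 16.9% and 58.1%, and among genes above background 35.7%, 19.6% and 44.7%. The 10 genes described are among the 32 and gave 7 of those higher and 3 of those lower. Itgb3, a partner of αv, had the largest difference among the 22 added genes. It was at 4056 for PLZF+/+, 3042 for PLZF+/lu, and 3023 for PLZFlu/lu, 1.34-fold higher in PLZF+/+, and like Tns3 it differed in the first step. Itgb3 is also a platelet gene. Of the 5 measured platelet markers 3 were above background, namely Itgb3 itself, Gp9 at 124, 143 and 124, and Itga2b at 148, 164 and 148, while the platelet chemokine genes Pf4 and Ppbp lay below it on all arrays. Gp9 and Itga2b had equal values in PLZF+/+ and PLZFlu/lu, and the part of platelet RNA in the level of Itgb3 was not tested. Itgam was at 164, 152 and 139, and Itga6, a laminin receptor chain, at 789, 797 and 922. Itgb2l, a relative of Itgb2, was at 111, 116 and 111, close to background. The β chains that pair with αv in epithelium, Itgb5, Itgb6 and Itgb8, were below background.

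**Figure D4:**
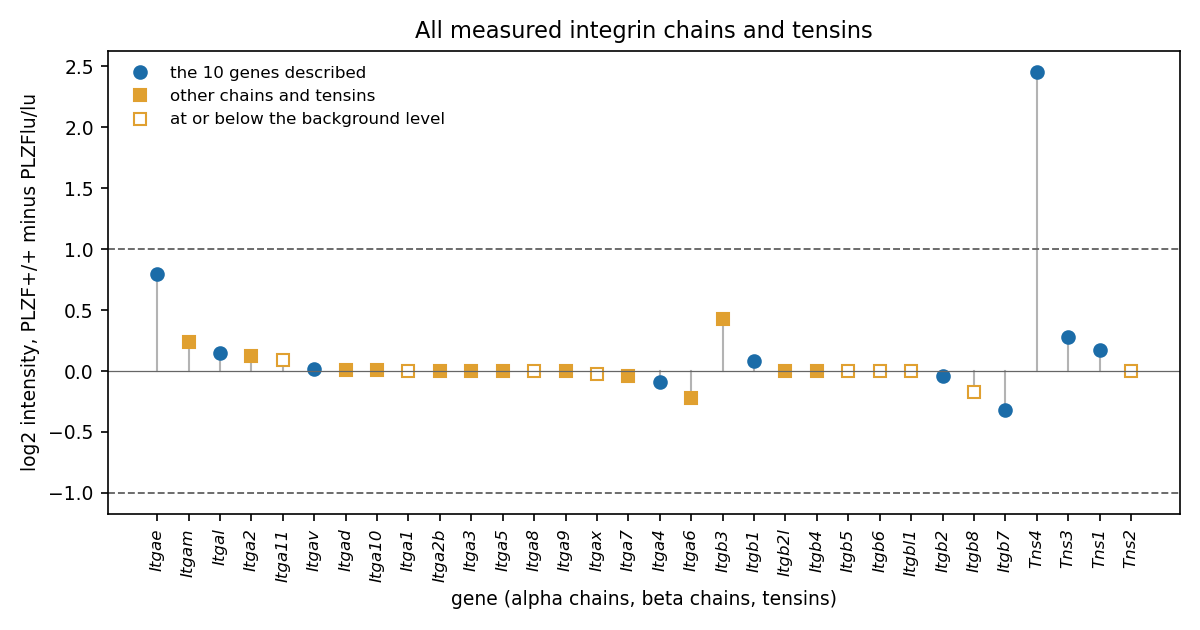
Log2 intensity difference PLZF+/+ minus PLZFlu/lu of 32 integrin chains and tensins, 1 array per genotype; blue circles are the 10 genes described, orange squares the other family members, open squares those at or below the background level of 108 on all arrays, and dashed lines mark 2-fold. Tns4 at 2.46 lies alone past the line, followed by Itgae at 0.79 and Itgb3 at 0.42.

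Genes that act with integrins were described from 11 lists (other family members included) with 209 genes, of which 198 were measured. None was past 2-fold between PLZF+/+ and PLZFlu/lu. At 1.5-fold 9 genes were past the threshold (4.55%), 3 of them higher and 6 lower in PLZF+/+, against 1.43% of all genes. The lists hold more expressed genes than the array as a whole, with 73.2% above background against 61.3%. Among all genes above background the share past 1.5-fold was 2.23%. The list medians were 0.00 on the log2 scale for each of the 11 lists, as for all genes. Of the 198 genes 92 (46.5%) had equal values on both arrays, against 58.1% of all genes and 44.7% of genes above background. A median of 0.00 thus says little about a shift of a list.

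Integrin activation starts inside the cell, where Rap1 GTPases and adaptors bring talin and kindlin to the β tail. Of 29 measured genes of this step, 11 were lower in PLZF+/+, 6 higher and 12 equal. For this list and those below, the shares over all genes were 16.9% lower, 24.9% higher and 58.1% equal. Among genes above background they were 19.6%, 35.7% and 44.7%. The counts of the lists were not tested. Fyb, the adaptor ADAP, was at 3029 for PLZF+/+, 4185 for PLZF+/lu, and 5095 for PLZFlu/lu, 1.68-fold lower in PLZF+/+. Cytip, which binds cytohesin and is known to restrain adhesion by LFA-1, was at 4798, 6093 and 8054, also 1.68-fold lower. For both genes PLZF+/lu lay between. Rapgef6, an exchange factor for Rap1, was the third gene of the list past 1.5-fold, at 2923, 3722 and 4481. The talin gene Tln1 had the same deposited value, 3462, on all arrays. Fermt3, which encodes the kindlin of blood cells, was at 2851, 2391 and 2395.

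None of 31 focal adhesion genes was past 1.5-fold, with 8 higher and 9 lower in PLZF+/+ and 14 equal. Actn1, an actin crosslinker, was at 2886, 3430 and 3905, and Rsu1, a binding partner of PINCH, at 5332, 4724 and 4286. Among 12 tensin partners the largest difference between the outer genotypes was 1.07-fold, for the cortactin gene Cttn, at 92.7, 117 and 86.5, above background in PLZF+/lu alone. Cbl, a ubiquitin ligase, was at 4674, 4617 and 4856. The receptor genes Met and Egfr and the RhoGAP gene Dlc1, whose products are known to bind tensins, were below background on all arrays.

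Ligands were dim as a group, with 9 of 22 measured genes above background, against 61.3% of all genes. Cdh1, the E-cadherin ligand of αEβ7, was at 125, 127 and 127, close to background. Vcam1 and Madcam1 were below it on all arrays. Lamc1, a laminin chain, was the ligand gene past 1.5-fold, at 621 for PLZF+/+, 476 for PLZF+/lu, and 329 for PLZFlu/lu. Mfge8, a ligand of αv integrins, was at 1674, 1472 and 1518.

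Tetraspanins and other proteins that lie beside integrins in the membrane gave 7 genes higher in PLZF+/+, 6 lower and 3 equal. Cd81 was at 3693, 2873 and 2593 and Cd9 at 498, 351 and 351, each 1.42-fold higher in PLZF+/+. Of 24 other adhesion and homing receptors 2 were higher in PLZF+/+, 11 lower and 11 equal. Ceacam1, a homophilic receptor, was at 178, 155 and 95.2, the last below background. Cd24a, a marker of immature thymocytes, was at 213, 207 and 361, so that its PLZFlu/lu array stood apart as for Itgae, but in the opposite direction.

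TGF-β is known to induce Itgae in T cells. Of 24 measured genes of its pathway 7 were higher in PLZF+/+, 9 lower and 8 equal. Smad7, an inhibitor that the pathway itself induces, was at 310 for PLZF+/+, 406 for PLZF+/lu, and 596 for PLZFlu/lu, 1.92-fold lower in PLZF+/+. Bmpr2, a receptor for bone morphogenetic proteins, was at 746, 524 and 535. Tgfbr2 was at 2565, 3029 and 3309, and Tgfb1 at 1727, 1524 and 1564. Of 18 measured genes known to act on the αE, α4 and β7 chains or in gut homing, 6 were higher in PLZF+/+, 3 lower and 9 equal. Rxra, a retinoid receptor, was at 785, 463 and 396, just under 2-fold, and the repressor gene Klf3, which is known to act on Itgb7, at 1260, 1936 and 2399. Runx3 was at 1087, 882 and 825. Klf3 and Itgb7 were both lowest in PLZF+/+ and highest in PLZFlu/lu, and the part of Klf3 in the level of Itgb7 was not tested.

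**Figure D5:**
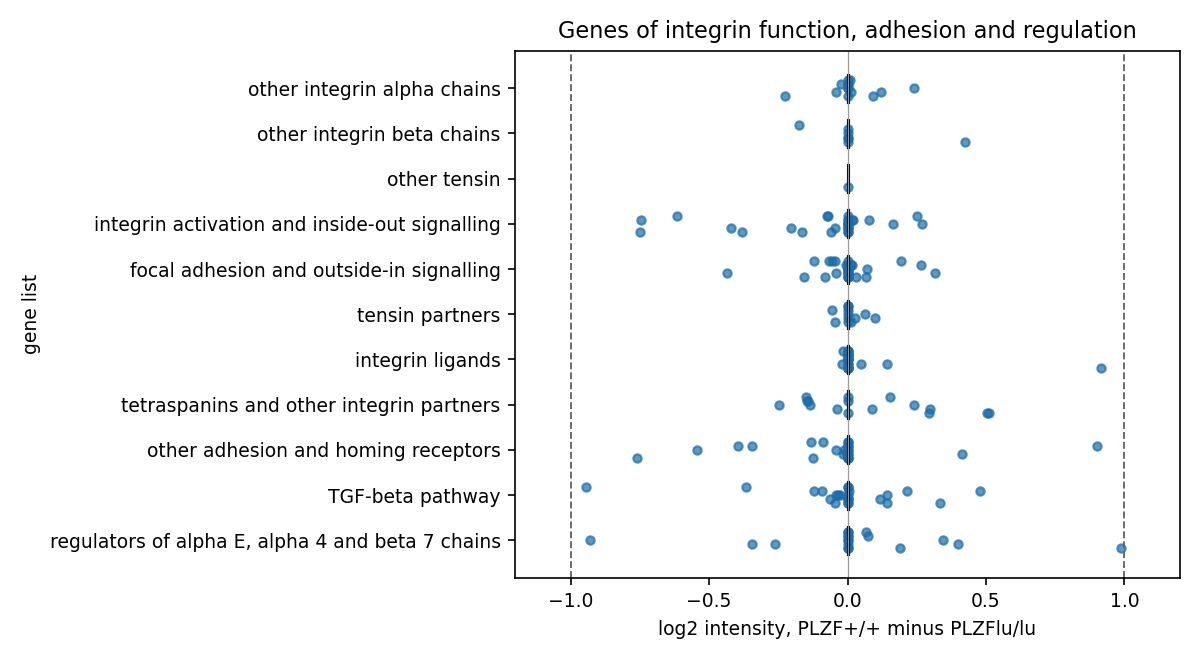
Log2 intensity difference PLZF+/+ minus PLZFlu/lu of the measured genes (points) in 11 lists, 1 array per genotype; black bars are list medians, dashed lines mark 2-fold, and points are spread vertically only to be seen. No point lies past a dashed line, and all medians are at 0.00, where the genes with equal values on both arrays lie.

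The genes next to each member on its chromosome were taken from the order of protein-coding genes in the RefSeq table of GRCm38.p6, 3 on each side, a choice made after the values were seen. Of 54 measured neighbours 2 were past 2-fold between PLZF+/+ and PLZFlu/lu, against 0.430% of all genes. The count is small and was not tested. The median log2 difference was 0.00, as for all genes, most of which had equal values on both arrays. Tns4 lies on chromosome 11 between Igfbp4 and Ccr7, a chemokine receptor of lymph node homing. PLZF+/+ and PLZFlu/lu had 6966 and 6982 for Igfbp4 and 6161 and 6578 for Ccr7, so that none of the 6 genes around Tns4 differed by more than 1.07-fold between these genotypes. The 5 measured neighbours of Itgae, on the same chromosome, differed by at most 1.07-fold as well. Haspin, a kinase gene that overlaps Itgae, was at 97.7 on all arrays. Cerkl, which overlaps Itga4, was at 341, 385 and 351, and Rufy4, which overlaps Tns1, at 131, 151 and 131. Both were highest in PLZF+/lu, as Itga4 and Tns1 were, and their part in those levels was not tested. The neighbours past 2-fold were Nrp1, next to Itgb1, at 656 in PLZF+/+ and 286 in PLZFlu/lu, and Cxcr2, near Tns1, at 415 and 185, while Itgb1 and Tns1 themselves differed by 1.06-fold and 1.13-fold.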

How the data were processed

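The values are linear intensities of probe sets, as the authors deposited them from GenePattern without the normalization controls, with a single array for each genotype. The submitters' processing notes name the build mm 8. How the authors summarised and scaled the probes was not stated. Of 24800 probe sets, 21065 had exactly 1 gene in the platform annotation, 1187 several and 2548 none, and symbols of 20983 were updated through the RefSeq table of GRCm38.p6. Its coordinates served only to find which genes neighbour or overlap a member in that assembly, and none is printed, since the builds differ. Values were compared as log2 differences, with values within 1e-06 taken as equal. A genotype has a single array, so nothing was tested, and the precision is limited by that number.

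The genes and lists were chosen with earlier results of these data known. The named genes are the 10 members, Zbtb16, the genes past 2-fold in each list (at most 4) or otherwise the 2 with the largest difference above background, and the 5 nearest in pattern to Tns4. Other genes were named after their values were seen, for their known role beside a member: Tns2, Itgb5, Itgb6, Itgb8, Rapgef6, Tln1, Fermt3, Met, Egfr, Dlc1, Cdh1, Vcam1, Madcam1, Tgfbr2, Tgfb1 and Runx3. The 10 cell type marker lists cover T cells, γδ TCR, the CD8 lineage, macrophages and dendritic cells, B cells, thymic epithelium, fibroblasts, endothelium, platelets and erythroid cells. The alternatives were quantile normalization, median centring, cyclic loess, an offset of 32, the mean over probe sets, leaving out dim genes, PLZF+/+ replaced by its average with PLZF+/lu, and thresholds of 1.5-fold and 3-fold. The counting code was run on simulated data, with normal noise on every value and known differences added to a single column. The simulated data lack the ties of the real arrays, so the run checks the code and not the calls made here. Normalizations used limma 3.58.1 in R 4.3.3. Everything else ran in Python 3.11.15 (pandas 2.3.3, numpy 2.4.6), and matplotlib 3.10.9 drew the plots.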

Additional observations from a re-analysis of the deposited data

How the results depend on the processing

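Tns4 was past 2-fold between PLZF+/+ and PLZFlu/lu under every alternative that gave it a value, with a log2 difference from 1.71, with PLZF+/+ replaced by its average with PLZF+/lu, to 2.46. That average shrinks the difference by construction, since PLZF+/lu lay between. Itgae stayed between 0.77 and 0.81. Tns1, at 0.18, was at 0.09 with the mean over its probe sets and at 0.39 with the averaged PLZF+/+ value, which holds the high PLZF+/lu array. Tns3, at 0.28, was at 0.14 with that average. With 32 added to each intensity Tns4 was at 2.29. Itgav, at 0.01, lies at 0 and changed its sign under 2 alternatives, down to -0.04, and quantile normalization left 6 of the 10 genes higher in PLZF+/+ in place of 7. The other 9 genes kept their direction under the alternatives run. At 1.5-fold in place of 2-fold, 2 of the 10 genes were past the threshold between PLZF+/+ and PLZFlu/lu, 3 between PLZF+/lu and PLZFlu/lu, where none was past 2-fold, and 9 genes of the wider lists. PLZF+/lu lay between for 3 genes with median centring and for 5 with cyclic loess, against 4. The scaling alternatives moved the median of all genes by less than 0.01 on the log2 scale. The array medians were already close as deposited, at 160.0, 161.8 and 159.7. The scaling alternatives thus had little to move, and this stability is a weak check. No paired analysis was possible because there is 1 array per genotype. Signal near background limits Tns3 and the ligand genes.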

Other observations

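Markers of other cell types were in part above background. Of 9 thymic epithelial markers 5 were above background, and Ly75, which is also found on lymphocytes and dendritic cells, was at 784 for PLZF+/+, 933 for PLZF+/lu, and 1185 for PLZFlu/lu. The list sum was 1676 in PLZF+/+ and 2088 in PLZFlu/lu, with Krt8, Foxn1, Prss16 and Aire also above background, while Epcam, Krt5, Krt14 and Psmb11 were below background on all arrays. Of 7 B cell markers 5 were above background, with Cd79b at 1658, 1440 and 1406, Blk at 146 and Ighm at 132 on all arrays, and Pax5 and Cd22 at no more than 109, while Cd79a and Ms4a1 were below background throughout. Of 7 fibroblast markers 4 were above background, and the list sum was between 1003 and 1102. Pdgfrb was at 324, 265 and 202, Col1a1 at 241 on all arrays, Col1a2 at 202, 210 and 202, and Col3a1 at 155, 178 and 178, with Pdgfra, Dcn and Lum below background. The endothelial list sum was between 3029 and 3040, most of it from Pecam1, at 2643 on all arrays, with Cdh5 at 125, 125 and 139, and Kdr, Tek, Emcn and Plvap below background. The sum of the platelet list was 4400 in PLZF+/+ and 3369 in PLZFlu/lu and follows Itgb3. Alas2 and Klf1, the erythroid markers measured, were below background.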
